A study of Mus musculus with 17 samples.

Results

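Lysosomes are acidic organelles in which soluble hydrolases break down proteins, glycans and lipids delivered by endocytosis and autophagy. Lipoproteins taken up by a cell are dismantled there: the acid lipase LIPA frees cholesterol from its esters, and NPC2 and NPC1 pass that cholesterol out of the organelle. In the brain these genes are expressed by neurons and, often at higher levels, by microglia and astrocytes, and inherited loss of many of them causes storage disease of the nervous system. The 43 genes described here were chosen by name from the deposited count tables: 10 cathepsins, 25 sugar and lipid hydrolases and other lysosomal proteins (grouped with them here, among these the membrane protein Cln3), 7 further membrane proteins or sterol carriers, and Tfeb, a transcription factor that drives lysosomal genes. All 43 were listed in each of the 4 tables, among 31762, 30552, 30984 and 24652 genes.

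The series measured RNA by sequencing in C57BL/6 mouse material, in 17 libraries, to relate ApoE, a lipid-carrying protein released mainly by astrocytes, to neuronal cholesterol metabolism. Primary neurons gave 14 libraries in 7 groups of 2: an ADM treatment and its control; an ApoE particle treatment and its control (set 1 below); and a later table with a control, an ApoE particle and a reconstituted ApoE particle (set 2 below). Hippocampus gave 3 single libraries, from mice with a control shRNA and no FC, mice with a control shRNA and FC, and mice with an ApoE shRNA and FC. The labels do not spell out ADM or FC, and they give no dose, time, age, sex, or number of animals behind a hippocampal library. Nor is it said whether replicate libraries are separate cultures, so each p-value measures only the spread between these libraries.

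The libraries held 14624082 to 19142353 counts. Neuronal markers (12 genes such as Tubb3, Map2 and Snap25) summed to 4359 to 6087 CPM (counts divided by the library's total and scaled to a common total) in the neuron libraries, and astrocyte markers to 708 to 4704 CPM, so the cultures labelled neurons also held astrocyte RNA; in hippocampus these sums were 9667 to 12053 CPM and 5291 to 8549 CPM. The sum over 13 microglial markers was 8.39 to 45.1 CPM in the ADM table, 66.1 to 285 CPM in set 1 and 0.787 to 1.62 CPM in set 2, where 10 of the 13 were listed, each of them under 1 CPM in all libraries. In the ADM table the libraries of a group differed most, with a chi-square of 68.15 for each degree of freedom between the ADM libraries, against 2.63 between the particle libraries of set 1. In bulk RNA, fewer cells of a type and less RNA per cell cannot be told apart.

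Many lysosomal genes carry an E-box of the form CACGTG near the transcription start, and TFEB is known to bind an extended form of it, the CLEAR element. RefSeq promoters (build GRCm38.p6, 250 bases before to 50 after the start) were given for 38 of the 43 genes. CACGTG, which reads the same on both strands, lay in 13 of the 38 (34.2%), against 8.09% of 27025 genes. The longer palindrome TCACGTGA, which contains it, lay in 5 (13.2%) against 1.12%. The windows below are those with the longer motif, 1 for each gene, and the stretch of the Lamp1 promoter that holds 4 CACGTG cores, shown because no other of the 38 promoters held as many. They are written 5′ to 3′ on the gene's strand. Capitals mark 1 motif in each window and all 4 cores of the Lamp1 stretch. The Ctsa window ends in a further CACGTG, left in lower case, of a TCACGTGA whose core begins 5 bases after the start.
Cln3, chr7:126583335-126583374 (minus strand): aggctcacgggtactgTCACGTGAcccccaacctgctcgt
Ctsd, chr7:142387903-142387942 (minus strand): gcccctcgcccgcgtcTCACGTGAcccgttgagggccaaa
Ctsa, chr2:164833744-164833783 (plus strand): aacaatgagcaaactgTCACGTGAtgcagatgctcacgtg
Gla, chrX:134601177-134601216 (minus strand): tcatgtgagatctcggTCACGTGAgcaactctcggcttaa
Mcoln1, chr8:3500457-3500496 (plus strand): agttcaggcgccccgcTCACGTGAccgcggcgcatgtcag
Lamp1, chr8:13159095-13159156 (plus strand): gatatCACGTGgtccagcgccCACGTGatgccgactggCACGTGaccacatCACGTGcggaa
The core in capitals began 121 bases before the start in Cln3, 98 in Ctsd and 12 in Ctsa. The 4 cores of Lamp1 began 61 to 15 bases before its start. A match is a description of these letters, not of binding.

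Levels within the set spanned a wide range. Per kilobase of exon, in the control neurons of set 2, Psap, the precursor of the saposins that help break down sphingolipids, stood highest at 286 ± 11.5 CPM per kb (SD, n = 2). It was followed by Ids, a sulfatase acting on heparan and dermatan sulfate, at 118 ± 0.997, and by Lamp1, a heavily glycosylated protein of the limiting membrane, at 77.3 ± 0.642. Scarb2, the sorting receptor for glucocerebrosidase, at 48.2 ± 0.560, and Ctsb, a cysteine protease, at 47.4 ± 1.61, did not differ beyond their spread, nor did Ctsd, the main aspartic protease, at 33.8 ± 0.679, and Gaa, which digests glycogen, at 33.6 ± 0.493. At the other end were Tfeb at 0.440 ± 0.145, Ctsh at 0.466 ± 0.0937 and Ctsk, a collagen-degrading cathepsin best known from bone, at 0.668 ± 0.465 CPM per kb, which overlapped. Across tables, which were not normalised together, 8 genes were higher in all 3 hippocampal libraries than in any neuron library. They were Ctsk, Npc1, Mcoln1, Gaa, Man2b1, Neu1, Smpd1 and Arsb. Scarb2 and Ids, 2 genes, were lower, and 33 overlapped. How many of all genes separate in this way was not counted, so the split has no background to be read against.

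**Figure D1:**
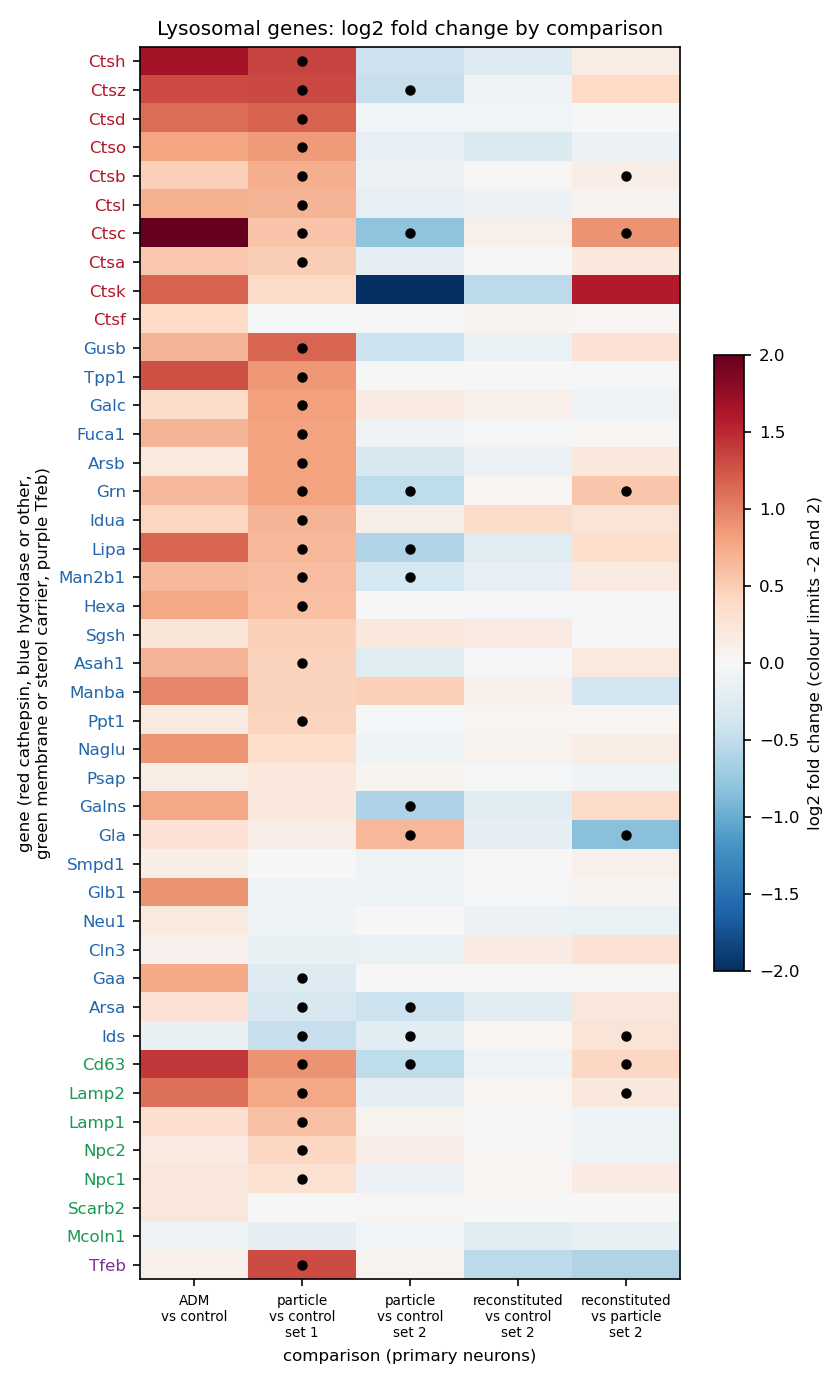
Log2 fold change of the 43 genes (rows, grouped by role and ordered within it by the set 1 value) in 5 neuron comparisons (columns), from edgeR, with colours limited to -2 and 2; dots mark an adjusted p under 0.05. The ADM column is red for 41 genes and holds no dot, the set 1 column has 26 higher and 3 lower genes with a dot, the ApoE particle column of set 2 has 1 higher and 9 lower, the reconstituted particle against control has none, and the last column, the reconstituted particle against the ApoE particle, has 6 higher and 1 lower.

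In set 1 the ApoE particle libraries held more RNA of most lysosomal genes than their controls. At an adjusted p under 0.05 (edgeR quasi-likelihood test, Benjamini-Hochberg over 16475 genes), 26 of the 43 were higher, 3 were lower and 14 were not called. Among all genes tested 36.4% were called, 18.9% higher and 17.4% lower. The median log2 fold change of the set was 0.49, against -0.01 over all genes. By role, 8 of 10 cathepsins, 12 of the 25 grouped as hydrolases and others, 5 of 7 membrane proteins or sterol carriers, and Tfeb were higher, and the 3 that were lower (Arsa, Gaa and Ids) were all hydrolases.

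Ctsd stood at 187 and 144 CPM in the control libraries and 399 and 403 in the particle libraries, a log2 fold change of 1.18 ± 0.11 (SE, adjusted p = 2.14e-05). Ctsz, a carboxypeptidase, rose from 40.0 and 25.9 to 87.1 and 88.9 CPM, by 1.32 ± 0.16 (adjusted p = 0.000158). Ctsh, an aminopeptidase of low level in these cultures, rose from 4.43 and 3.96 to 10.4 and 12.5 CPM, by 1.35 ± 0.19 (adjusted p = 0.000243). Both particle libraries lay above both controls for these 3, as for 9 of the 10 cathepsins. Of the 43 genes 35 separated in this way, and 4 lay below both controls. How many of all genes do so was not counted. Ctsb, a cysteine protease, rose from 607 and 519 to 1014 and 988 CPM, by 0.73 ± 0.10 (adjusted p = 0.000185). Ctsl rose from 184 and 142 to 278 and 283 CPM, by 0.68 ± 0.11 (adjusted p = 0.000679). Ctsa, which also shields β-galactosidase and neuraminidase from degradation, Ctsc, a dipeptidyl peptidase that activates other proteases, and Ctso rose as well, by 0.49, 0.58 and 0.85. The 2 cathepsins not called were Ctsf, at -0.04 ± 0.10, and Ctsk, at 0.39 ± 0.49 and under 1 CPM in each of the 4 libraries.

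Among the hydrolases Gusb, the β-glucuronidase, rose most, from 19.6 and 15.0 to 40.6 and 42.1 CPM, by 1.16 ± 0.13 (adjusted p = 5.18e-05). Tpp1, a tripeptidyl peptidase lost in a childhood neuronal ceroid lipofuscinosis, rose from 63.0 and 50.1 to 111 and 111 CPM, by 0.87 ± 0.10 (adjusted p = 8.73e-05). Galc, which cleaves galactosylceramide of myelin, and Fuca1, the α-L-fucosidase, rose by 0.82 ± 0.10 and 0.81 ± 0.11. Of the proteins nearest to lipoprotein breakdown, Lipa rose from 20.6 and 19.0 to 35.5 and 31.6 CPM, by 0.66 ± 0.12 (adjusted p = 0.00112). Grn, progranulin, a secreted protein that is carried to lysosomes together with prosaposin, rose from 107 and 85.6 to 177 and 184 CPM, by 0.81 ± 0.10 (adjusted p = 0.000136). Psap itself stood at 1352 and 1200.0 CPM in the controls and 1581 and 1596 with particles; the groups did not overlap, but its log2 fold change of 0.21 ± 0.09 was not called (adjusted p = 0.0962). The other called rises were Arsb (0.81), Idua (0.68), Man2b1 (0.62), Hexa (0.61), Asah1 (0.46) and Ppt1 (0.45), which act on glycosaminoglycans, glycoproteins, gangliosides, ceramide and thioester-linked fatty acids. Ids went the other way, from 563 and 614 to 461 and 455 CPM, a log2 change of -0.47 ± 0.09 (adjusted p = 0.00245). Arsa, which removes sulfate from sulfatide, and Gaa fell by 0.33 ± 0.10 and 0.25 ± 0.09 on the log2 scale.

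Of the membrane proteins and sterol carriers, Cd63, a tetraspanin of late endosomes and their vesicles, changed most, from 97.0 and 71.1 to 168 and 166 CPM, by 0.89 ± 0.12 (adjusted p = 0.000212). Lamp2, a membrane protein needed for chaperone-mediated autophagy, rose from 139 and 125 to 236 and 249 CPM, by 0.77 ± 0.09 (adjusted p = 7.34e-05). Lamp1 rose from 299 and 239.7 to 439 and 428 CPM, by 0.59 ± 0.11 (adjusted p = 0.00128). The fold changes of these 3 were above those of the cholesterol carriers. Npc2, the soluble carrier, rose from 116 and 98.9 to 155 and 154 CPM, by 0.41 ± 0.09 (adjusted p = 0.00499). Npc1, the membrane-bound partner, rose from 48.1 and 47.5 to 64.6 and 62.9 CPM, by 0.31 ± 0.09 (adjusted p = 0.0167). Scarb2, at 0.00 ± 0.09, and Mcoln1, a calcium channel of the lysosomal membrane, at -0.20 ± 0.09, were not called. Tfeb rose from 3.35 and 2.15 to 6.84 and 7.71 CPM, by 1.31 ± 0.25 (adjusted p = 0.0016). The 13 genes with a CACGTG in the promoter had 4 rises and 2 falls and a median log2 fold change of 0.13. The 25 without one, Tfeb among them, had 18 rises and 1 fall and a median of 0.66. How all genes divide by this motif was not counted, and the difference was not tested.

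Some of these calls were lost when 1 library was left out or the scaling was changed. Without particle library 1, Npc1 was 0.28 (adjusted p = 0.237), Npc2 0.40 (adjusted p = 0.0522), Gaa -0.24 (adjusted p = 0.348), Arsa -0.33 (adjusted p = 0.172), Idua 0.54 (adjusted p = 0.0658) and Asah1 0.39 (adjusted p = 0.0644) by edgeR. Without particle library 2, Npc1 was 0.34 (adjusted p = 0.153), Gaa -0.27 (adjusted p = 0.284), Arsa -0.33 (adjusted p = 0.201), Ids -0.45 (adjusted p = 0.0561) and Ppt1 0.41 (adjusted p = 0.0548). Without control library 1, Arsa was -0.22 (adjusted p = 0.0624) and Psap was called, at 0.30 (adjusted p = 7.56e-05). Scaling by library totals in place of TMM moved the median of all genes to 0.10 and the share of rises among all calls from 52% to 65.6%; Gaa and Arsa then were no longer called, at -0.15 and -0.22, and Psap was, at 0.32. With DESeq2, Npc1 and Arsa were not called.

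Other parts of the pathway did not move as one block. Of 25 further lysosomal enzymes and membrane proteins 14 were higher and 2 lower, with a median of 0.32; Laptm5, a lysosomal protein of blood-derived cells and microglia, rose by 1.92 ± 0.12. Of 18 subunits of the proton pump that acidifies lysosomes 2 were higher and 11 lower, with a median of -0.31; Atp6v0a2 rose by 0.83 ± 0.09, and Atp6v0a1, the isoform typical of neurons, changed by -0.71 ± 0.09. Of 8 genes for sorting to the lysosome 3 were higher, among them M6pr, a mannose-phosphate receptor, by 0.42 ± 0.09, and 1 was lower, Gnptab, at -0.42 ± 0.10. Of 18 genes for relatives of TFEB and the lysosomal mTORC1 platform 2 were higher and 2 lower; Mitf rose by 1.07 ± 0.29 and Rragb changed by -0.49 ± 0.08.

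Markers of other cell types moved in the same libraries. Of 12 microglial markers tested 11 were higher and none lower (median 1.80), with C1qa at 1.87 ± 0.12 and Cx3cr1 at 2.30 ± 0.15, and their sum was 66.1 and 83.7 CPM in the controls and 280 and 285 CPM with particles. Of 11 astrocyte markers 8 were higher and 1 lower, and their sum went from 3037 and 3376 to 4547 and 4704 CPM. All 8 markers of proliferating cells and 5 of 9 vessel and fibroblast markers were higher, 1 of the latter being lower, and 11 of 12 neuronal markers were lower, with sums of 5524 and 5850 CPM in the controls and 4359 and 4487 CPM with particles. The part of these cells in the lysosomal changes was not tested.

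**Figure D2:**
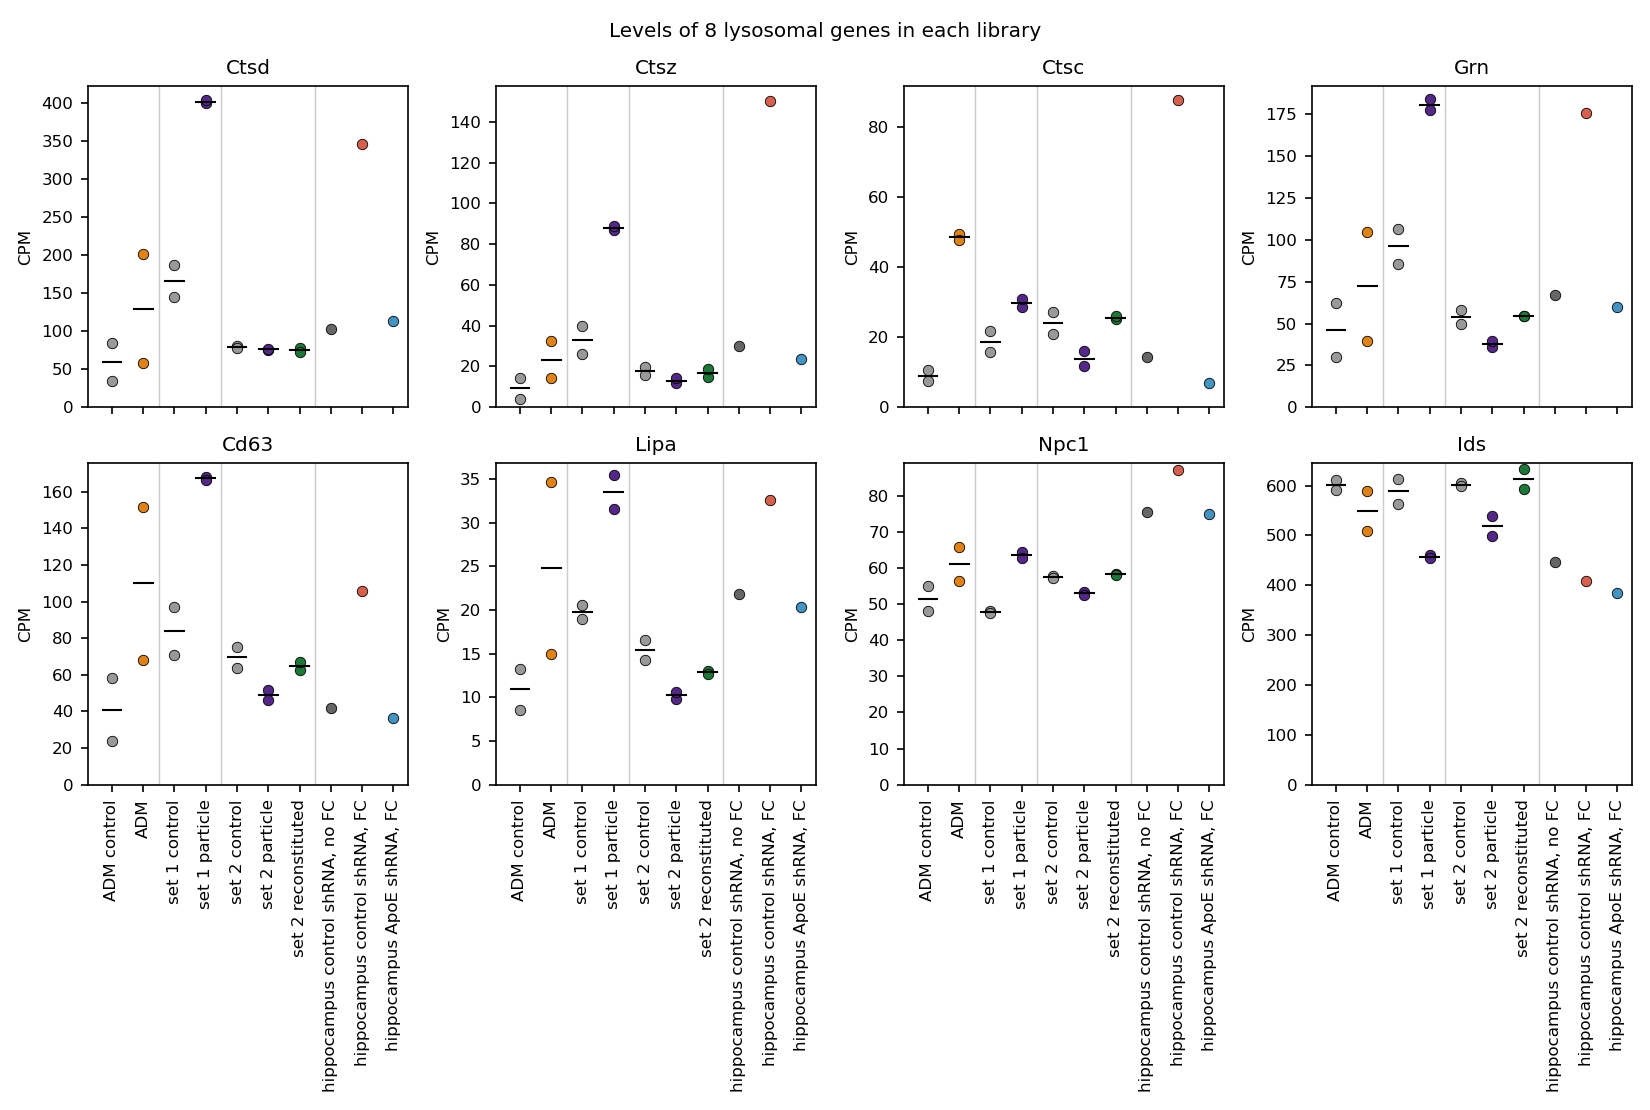
CPM of 8 lysosomal genes in each of the 17 libraries (points; linear axes from 0), by experiment and treatment, with a bar at the mean of each group of 2. In set 1 both particle libraries stand above both controls for each gene shown but Ids, for which they stand below, and in set 2 the ApoE particle libraries are the lowest of their table for each gene shown but Ctsd.

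The same comparison in set 2 gave another picture. With the ApoE particle, 1 of the 43 genes was higher (Gla), 9 were lower and 33 were not called (edgeR, over 16388 genes), against 22.1% of all genes called, 10% higher and 12.1% lower. The share of the set that was called, 23.3%, was near that background. The median log2 fold change was -0.10. Those that were lower were 2 cathepsins, 6 hydrolases or other soluble proteins and Cd63.

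Ctsc stood at 27.2 and 20.9 CPM in the controls and 11.7 and 16.0 with particles, a log2 change of -0.80 ± 0.14 (adjusted p = 0.000492). Ctsz went from 19.9 and 16.1 to 11.8 and 14.3 CPM, a change of -0.47 ± 0.14 (adjusted p = 0.0227). For both genes the groups did not overlap. Ctsb (-0.12 ± 0.05), Ctsd (-0.06 ± 0.07) and Ctsl (-0.17 ± 0.07) were not called, and Ctsd stood at 80.5 and 78.2 CPM without and 75.9 and 77.1 with particles. Gla, the α-galactosidase that cleaves globotriaosylceramide, was the 1 rise, from 8.77 and 8.29 to 14.4 and 12.8 CPM, by 0.67 ± 0.17 (adjusted p = 0.00483).

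Grn fell from 57.8 and 49.7 to 35.7 and 39.7 CPM, a log2 change of -0.51 ± 0.08 (adjusted p = 8.52e-05). Lipa fell from 16.6 and 14.3 to 9.84 and 10.6 CPM, a change of -0.60 ± 0.14 (adjusted p = 0.00342). Galns, a sulfatase of keratan sulfate, changed by -0.62 ± 0.18, Arsa by -0.44 ± 0.10, Man2b1, an α-mannosidase, by -0.35 ± 0.10 and Ids by -0.22 ± 0.04. Cd63 fell from 75.4 and 63.6 to 46.2 and 52.0 CPM, a change of -0.50 ± 0.08 (adjusted p = 8.47e-05). Lamp1 (0.08 ± 0.05), Lamp2 (-0.18 ± 0.06), Npc1 (-0.12 ± 0.07), Npc2 (0.13 ± 0.06), Psap (0.06 ± 0.04) and Tfeb (0.07 ± 0.33) were not called. Tfeb was measured at 1.91 to 3.08 CPM in these 4 libraries, and with a standard error of 0.33 a moderate change could go uncalled.

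Ctsz, Man2b1, Galns and Gla lost their calls without particle library 1 of set 2. Their log2 changes by edgeR were then -0.34, -0.22, -0.44 and 0.57, and Tfeb turned to -0.09. Without control library 1, Ctsz was -0.31 (adjusted p = 0.269), Lipa -0.49 (adjusted p = 0.0631) and Man2b1 -0.26 (adjusted p = 0.188). Without control library 2, Galns was -0.50 (adjusted p = 0.117), Ctsl was called, at -0.23 (adjusted p = 0.046), and Tfeb turned to -0.22. Lamp2 was called without either reconstituted library, at -0.17 (adjusted p = 0.0424) and -0.17 (adjusted p = 0.0416). With DESeq2, Ctsz, Man2b1 and Galns were not called.

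The other genes of the pathway are to be read against the 22.1% of all genes called in set 2. Of 23 further lysosomal genes none was higher and 1 was lower, Atp13a2, at -0.42 ± 0.05. Of 18 proton pump subunits 3 were higher and 1 was lower: Atp6v0a2 changed by -0.79 ± 0.07 and Atp6v1g2 by 0.36 ± 0.08. Of 8 sorting genes 1 was higher (Cln8, 0.29 ± 0.09) and 2 were lower, among them Igf2r, the larger mannose-phosphate receptor, at -0.25 ± 0.06. Of 17 genes of the TFEB relatives and mTORC1 platform 3 were higher and none was lower, led by Rragb at 0.40 ± 0.07. No microglial marker had enough counts to be tested. Of 11 astrocyte markers 8 were lower and 2 higher, with sums of 1607 and 1724 CPM in the controls and 1106 and 1230 CPM with particles. Also lower were 7 of 8 proliferation markers and 5 of 9 vessel and fibroblast markers. Among 12 neuronal markers 5 were lower and 1 higher. The part of these markers in the lysosomal changes was not tested.

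**Figure D3:**
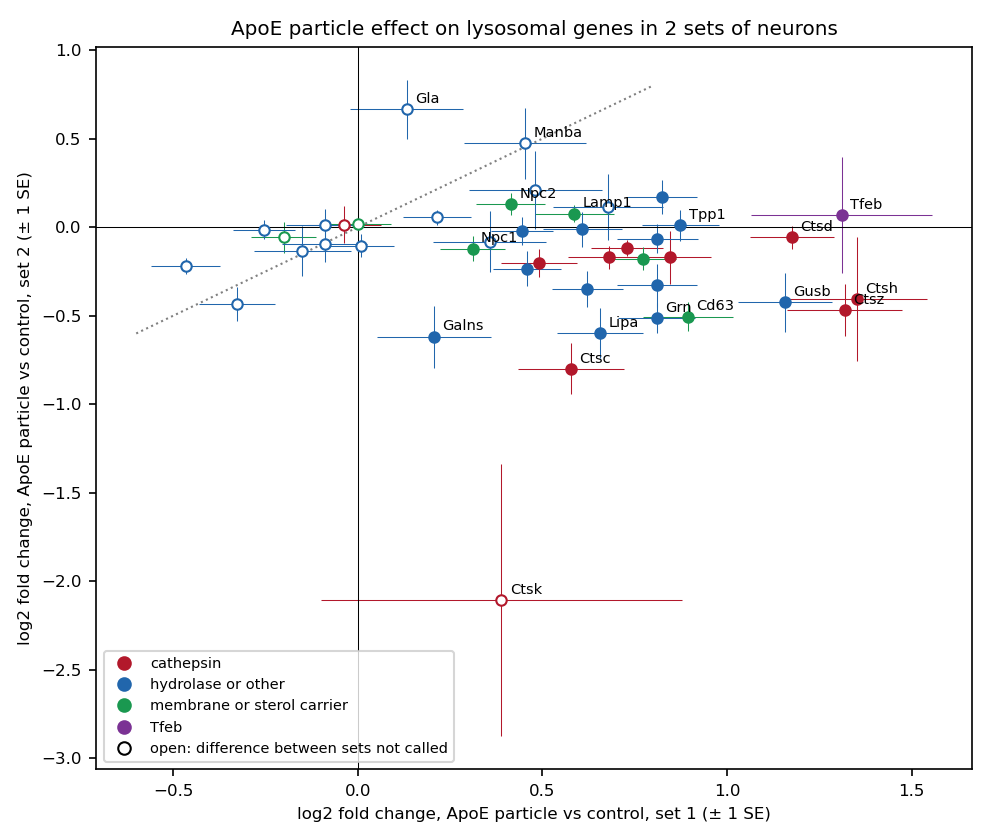
Log2 fold change of each of the 43 genes with the ApoE particle in set 1 (x axis) and in set 2 (y axis), coloured by role, with bars of 1 SE, solid lines at 0 and a dotted line where both are equal; filled points are genes for which the difference between sets was called. The points lie mostly to the right of 0 and between -0.80 and 0.67 on the y axis, apart from Ctsk at -2.11, which was not called.

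The difference between the sets was tested in a single edgeR model, as the set 2 effect minus the set 1 effect. It was negative and called for 26 of the 43 genes and positive and called for none, against 31.1% of 17098 genes called, 14.8% positive and 16.4% negative. The median difference was -0.68 on the log2 scale, and -1.15 over the 10 cathepsins, of which 8 were called. Of the 26 genes higher in set 1, 6 were lower in set 2 (Ctsc, Ctsz, Grn, Lipa, Man2b1 and Cd63) and 20 were not called there. Of the 3 lower in set 1, Arsa and Ids were also lower in set 2, and Gaa was not called. The 12 genes called in none of the neuron comparisons were Ctsf, Ctsk, Psap, Scarb2, Mcoln1, Cln3, Glb1, Manba, Naglu, Neu1, Sgsh and Smpd1; Smpd1, the acid sphingomyelinase, was at 0.01 ± 0.09 in set 1 and -0.10 ± 0.07 in set 2, and Glb1, the β-galactosidase, at -0.09 ± 0.12 and -0.10 ± 0.10.

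The difference was -1.81 ± 0.26 (SE) for Ctsz, -1.79 ± 0.34 for Ctsh, -1.41 ± 0.24 for Ctsc and -1.26 ± 0.13 for Ctsd, with adjusted p of 0.000448, 0.00108, 0.000734 and 4.32e-06. It was -0.87 ± 0.10 for Ctsb and -0.88 ± 0.14 for Ctsl. Among the 25 grouped as hydrolases and others it was largest for Gusb (-1.61 ± 0.21), Grn (-1.35 ± 0.14), Lipa (-1.28 ± 0.18) and Arsb (-1.17 ± 0.15), and Psap, at -0.19 ± 0.10, was not called (adjusted p = 0.159). For the membrane proteins it was -1.43 ± 0.17 for Cd63, -0.98 ± 0.10 for Lamp2, -0.54 ± 0.12 for Lamp1 and -0.46 ± 0.10 for Npc1. Npc2 was called at -0.31 ± 0.11 (adjusted p = 0.0495) and Tfeb at -1.27 ± 0.40 (adjusted p = 0.0261). The proton pump went the other way, with 12 of 18 subunits positive and 2 negative.

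Of these, Npc2 kept its call only in the fits by library totals, by the RLE scaling and without control library 1 of set 1; its adjusted p was between 0.0538 and 0.228 in the 11 other fits, among them those without any other 1 library. Tfeb was not called with DESeq2 (adjusted p = 0.0696), nor without control library 2 of set 1 (-0.98), either particle library of set 1 (-1.34 and -1.19), control library 1 (-0.89) or particle library 2 of set 2 (-1.12), and Galns not without particle library 2 of set 1 (-0.84), control library 2 (-0.73) or particle library 1 of set 2 (-0.68); Psap was called without control library 1 of set 1 (-0.25). The sets also differed in their control cultures. The 10 cathepsins summed to 993 and 1219 CPM in set 1 controls and to 583 and 620 CPM in set 2 controls. Microglial markers summed to 66.1 and 83.7 against 1.42 and 1.62 CPM, and astrocyte markers to 3037 and 3376 against 1607 and 1724 CPM. Proliferation markers were lower in set 1, at 133 and 148 against 181 and 224 CPM. So were vessel and fibroblast markers, at 67.5 and 88.8 against 127 and 201 CPM. The set and whatever else differed between the experiments cannot be told apart.

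**Figure D4:**
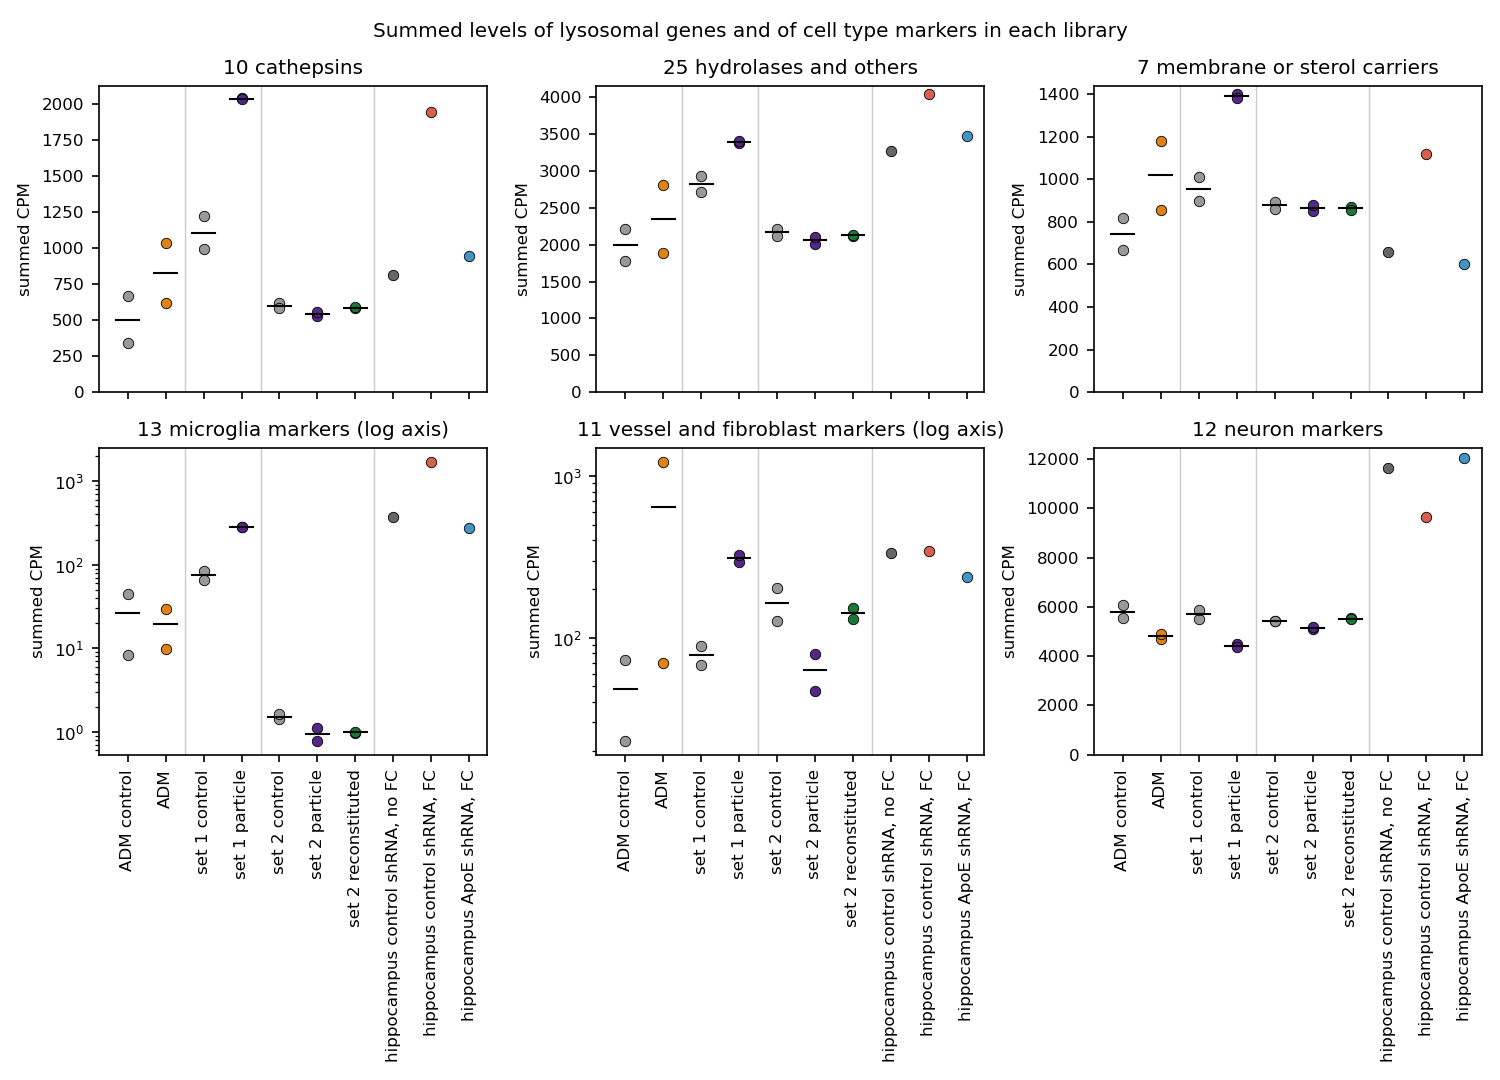
Summed CPM of the cathepsins, of the 25 hydrolases and others, of the 7 membrane proteins or sterol carriers and of 3 lists of cell type markers in each of the 17 libraries (points, with a bar at the mean of each group of 2); the microglia and the vessel and fibroblast panels have log axes, the others linear axes from 0. Cathepsin sums run from 343 CPM in an ADM control to 2038 CPM in a set 1 particle library, and the microglial marker sum from 0.787 CPM in set 2 to 1689 CPM in the hippocampus with control shRNA and FC.

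The reconstituted ApoE particle was compared with the control and with the ApoE particle of set 2; the 3 comparisons of that table share libraries, so their values are given side by side and not set against each other by a test. Against the control, edgeR called none of the 43 genes and none of 16388 genes (0% of the background). At an unadjusted p under 0.05 there were 2 of the 43, both lower, and 776 of all genes, and DESeq2 also called 0. The median log2 fold change of the 43 was -0.03 and the values ran from -0.53 to 0.37. Tfeb was at -0.53 ± 0.35, Lipa at -0.25 ± 0.14, Ctsd at -0.06 ± 0.07, Ctsb at 0.02 ± 0.05, Ctsl at -0.11 ± 0.07 and Grn at 0.04 ± 0.08. Lamp1 was at -0.01 ± 0.05, Lamp2 at 0.04 ± 0.06, Npc1 at 0.04 ± 0.07, Npc2 at 0.02 ± 0.06 and Psap at -0.03 ± 0.04. Outside Tfeb these standard errors are at most 0.14. The libraries of the 2 groups overlapped for 29 of the 43 genes. Both reconstituted libraries were above both controls for 2 genes and below both for 12. That split was not counted over all genes, so it has no background to be read against.

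Against the ApoE particle, the reconstituted particle gave 6 higher and 1 lower of the 43 (16.3%), below the 20.3% of all genes called (11.4% higher and 8.88% lower). Ctsc was at 25.2 and 25.9 CPM against 11.7 and 16.0, a log2 difference of 0.91 ± 0.14 (adjusted p = 0.000153). Grn was at 54.6 and 54.6 CPM against 35.7 and 39.7, a difference of 0.55 ± 0.09 (adjusted p = 3.42e-05). Cd63 was at 62.4 and 66.8 CPM against 46.2 and 52.0, a difference of 0.42 ± 0.08 (adjusted p = 0.000752). Each of these 3 had lower values in both ApoE particle libraries than in the other 4 libraries of the table. The same held for Ids, Lamp2 and Ctsb, and for Lipa, Ctsz and Npc1, which were not called. How many of all genes show this was not counted. Ids was higher by 0.26 ± 0.05, Lamp2 by 0.22 ± 0.06 and Ctsb by 0.14 ± 0.05, and Gla was lower, at 6.43 and 8.49 CPM against 14.4 and 12.8, by 0.84 ± 0.17 on the log2 scale. Not called were Ctsd (-0.01 ± 0.07), Ctsl (0.06 ± 0.07), Lipa (0.35 ± 0.15), Lamp1 (-0.09 ± 0.05), Npc1 (0.16 ± 0.07), Npc2 (-0.11 ± 0.06), Psap (-0.09 ± 0.04) and Tfeb (-0.60 ± 0.35). The call of Ctsb was lost in 11 of the 13 other fits, with log2 differences of 0.10 to 0.16, among them those without either control or either particle library or reconstituted library 2; that of Lamp2 was lost without particle library 1, at 0.19 (adjusted p = 0.12), without reconstituted library 1, at 0.15 (adjusted p = 0.177), and with DESeq2; and Ctsd turned to 0.04 without reconstituted library 2. Of 11 astrocyte markers 8 were higher and 1 lower in the same comparison, with Gfap at 1.49 ± 0.06. Also higher were 6 of 8 proliferation markers and 5 of 9 vessel and fibroblast markers, with none lower. Among 12 neuronal markers 5 were higher and 1 lower. The part of these markers in the lysosomal differences was not tested.

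In the ADM table edgeR, fitted without the replicate number as a block, called none of the 43 genes and none of 16191 genes (0% of the background). At an unadjusted p under 0.05 there were 5 of the 43, all higher, and 1426 of all genes, and DESeq2 called 1 of the 43 and 304 of all genes. The median log2 fold change of the 43 was 0.64, with 41 positive values, against a median of 0.02 over all genes. Both ADM libraries were above both controls for 16 genes, below both for 1, and overlapped them for 26. That split was not counted over all genes, so it has no background to be read against. Ctsc, named here after its values were seen, stood at 7.44 and 10.7 CPM in the controls and 49.6 and 47.8 with ADM, a log2 fold change of 2.40 ± 0.23 with an adjusted p of 0.397. Lamp2 stood at 55.2 and 86.6 CPM in the controls and 114 and 195 with ADM, at 1.11 ± 0.36 (adjusted p = 0.553), and Lipa at 8.57 and 13.2 and 14.9 and 34.7 CPM, at 1.17 ± 0.49 (adjusted p = 0.589). For these 3 the groups did not overlap.

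Ctsd stood at 34.0 and 83.8 CPM in the controls and 58.1 and 201 with ADM, so that ADM library 1 lay between the controls and ADM library 2 above them. Ctsb was at 0.47 ± 0.37, Ctsl at 0.71 ± 0.44, Ctsd at 1.12 ± 0.73, Grn at 0.64 ± 0.59 and Psap at 0.15 ± 0.30. Lamp1 was at 0.34 ± 0.36, Npc1 at 0.22 ± 0.17, Npc2 at 0.18 ± 0.22 and Tfeb at 0.11 ± 0.74, with libraries that overlapped for Lamp1, Npc2 and Tfeb and not for Npc1. Without ADM library 2, Ctsd turned to -0.08, Grn to -0.26, Psap to -0.27, Lamp1 to -0.21, Npc2 to -0.10 and Tfeb to -1.28, and 1 of the 43 was called, against 0.278% of all genes. Without ADM control library 1, Psap turned to -0.09 and Tfeb to -0.17, and without ADM library 1, 4 of the 43 were called, against 3.75% of all genes, Lipa among them at 1.65 (adjusted p = 0.0411) by edgeR. Vessel and fibroblast markers summed to 23.1 and 72.9 CPM in the controls and to 69.3 and 1217 CPM with ADM, and microglial markers to 8.39 and 45.1 CPM and to 9.71 and 29.7 CPM; their part in the lysosomal values was not tested.

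In hippocampus, where each group was 1 library, values are ratios of CPM with exact binomial intervals at 95% that cover counting error only, and no test of the conditions was possible. Apoe, the targeted gene, stood at 1697 CPM with control shRNA without FC, 2797 CPM with control shRNA and FC, and 1384 CPM with ApoE shRNA and FC. The library with control shRNA and FC stood apart: its 13 microglial markers summed to 1689 CPM, against 371 CPM without FC and 277 CPM with ApoE shRNA and FC. Both comparisons that use it are given below beside the one that does not.

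With control shRNA, 28 of the 42 genes that had at least 100 counts in the higher library were higher with FC by more than 0.32 on the log2 scale, the fold used here, with an interval off 0, and 1 was lower (Gaa); Ctsk had too few counts. Of 12510 genes 34% passed that fold, 21.5% higher and 12.5% lower. At 1.5-fold the count was 19 of the 42, all higher, against 16.7% of all genes in either direction. The median log2 ratio was 0.52, against 0.03 over all genes, and 1.18 over the 9 cathepsins, of which 8 were higher. Between ApoE shRNA and control shRNA, both with FC, 1 gene was higher (Gaa) and 26 were lower, against 44.3% of 12474 genes past the fold, 15.8% higher and 28.5% lower, with a median of -0.55. These 2 comparisons share the library that stood apart. All 13 microglial markers were higher in the first of them and lower in the second, with medians of 2.14 and -2.49. Of 12 astrocyte markers 5 were higher and none lower in the first, and 8 were lower and none higher in the second, with sums of 6418, 8549 and 5291 CPM without FC, with FC and with ApoE shRNA and FC. Of 10 oligodendrocyte lineage markers 6 were higher in the first and 5 lower in the second, and of 9 vessel and fibroblast markers 3 were higher and 2 lower, then 1 higher and 6 lower. The part of these markers in the lysosomal ratios was not tested.

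Ctsc stood at 14.5, 87.8 and 6.98 CPM in the 3 libraries, first the control shRNA without FC, then the control shRNA with FC, then the ApoE shRNA with FC, which is also the order below. Its log2 ratio was 2.60 (2.41 to 2.79) for FC against no FC and -3.65 (-3.92 to -3.39) for ApoE shRNA against control shRNA. Ctsh stood at 9.58, 51.3 and 10.5 CPM, with ratios of 2.42 (2.18 to 2.66) and -2.29 (-2.52 to -2.07). Both cathepsins were far higher in the library with control shRNA and FC than in the others. Ctsz stood at 30.1, 150.3 and 23.5 CPM, with ratios of 2.32 (2.19 to 2.46) and -2.67 (-2.82 to -2.53). Ctsd stood at 103, 346 and 113 CPM, with ratios of 1.75 (1.68 to 1.83) and -1.61 (-1.69 to -1.54). Ctsb and Ctsl had smaller ratios, of 1.18 (1.14 to 1.22) and 0.81 (0.70 to 0.92) for FC and -0.81 (-0.84 to -0.77) and -0.76 (-0.86 to -0.65) for ApoE shRNA.

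Npc2 stood at 56.3, 179 and 53.5 CPM, with log2 ratios of 1.67 (1.57 to 1.78) and -1.75 (-1.85 to -1.64), while its partner Npc1 stood at 75.6, 87.2 and 75.1 CPM and passed the fold in neither, at 0.21 (0.10 to 0.31) and -0.22 (-0.32 to -0.11). Lamp2 stood at 74.9, 166 and 50.01 CPM, with ratios of 1.14 (1.05 to 1.24) and -1.73 (-1.83 to -1.62). Lamp1 had ratios of 0.69 (0.63 to 0.75) and -0.86 (-0.92 to -0.79). The intervals of the 2 cholesterol carriers did not overlap, nor did those of Lamp2 and Lamp1. Grn stood at 67.2, 176 and 60.1 CPM, with ratios of 1.39 (1.29 to 1.48) and -1.55 (-1.65 to -1.45). Lipa had ratios of 0.58 (0.39 to 0.77) and -0.68 (-0.87 to -0.49), and Psap of 0.44 (0.41 to 0.46) and -0.25 (-0.27 to -0.23). Tfeb stood at 6.39, 16.4 and 7.57 CPM, with ratios of 1.35 (1.04 to 1.68) and -1.11 (-1.41 to -0.82).

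Between ApoE shRNA with FC and control shRNA without FC, which leaves out the library that stood apart but differs in both the shRNA and FC, 34 of the 42 genes were within the fold, 2 were higher and 6 were lower, against 21.2% of 11980 genes past it, 5.91% higher and 15.3% lower. The median log2 ratio was 0.02. Ctsc was lower by 1.05 (1.36 to 0.74) on the log2 scale and Lamp2 by 0.58 (0.70 to 0.46). Ctso, Asah1, Galc and Ctsz were also lower, at -0.52 (-0.70 to -0.34), -0.41 (-0.55 to -0.27), -0.37 (-0.52 to -0.22) and -0.35 (-0.54 to -0.17). The 2 higher were Ctsb, at 0.37 (0.33 to 0.41), and Galns, named for completeness after its value was seen, at 0.36 (0.08 to 0.65). Ctsd, at 0.14 (0.04 to 0.23), Ctsl, at 0.05 (-0.07 to 0.17), and Grn, at -0.16 (-0.28 to -0.04), were within the fold. So were Lamp1, at -0.17 (-0.24 to -0.10), Npc1, at -0.01 (-0.12 to 0.10), Npc2, at -0.07 (-0.20 to 0.05), Lipa, at -0.10 (-0.31 to 0.10), Psap, at 0.19 (0.16 to 0.21), and Tfeb, at 0.24 (-0.12 to 0.61). Of 11 microglial markers measured there 8 were lower and none was higher. Of 12 astrocyte markers 6 were lower and 1 higher, and of 9 vessel and fibroblast markers 5 were lower and none higher. The 2 erythrocyte markers measured were also lower. Of 10 oligodendrocyte lineage markers 1 was lower, and of 12 neuronal markers 1 was higher. The part of these markers in the lysosomal ratios was not tested.

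**Figure D5:**
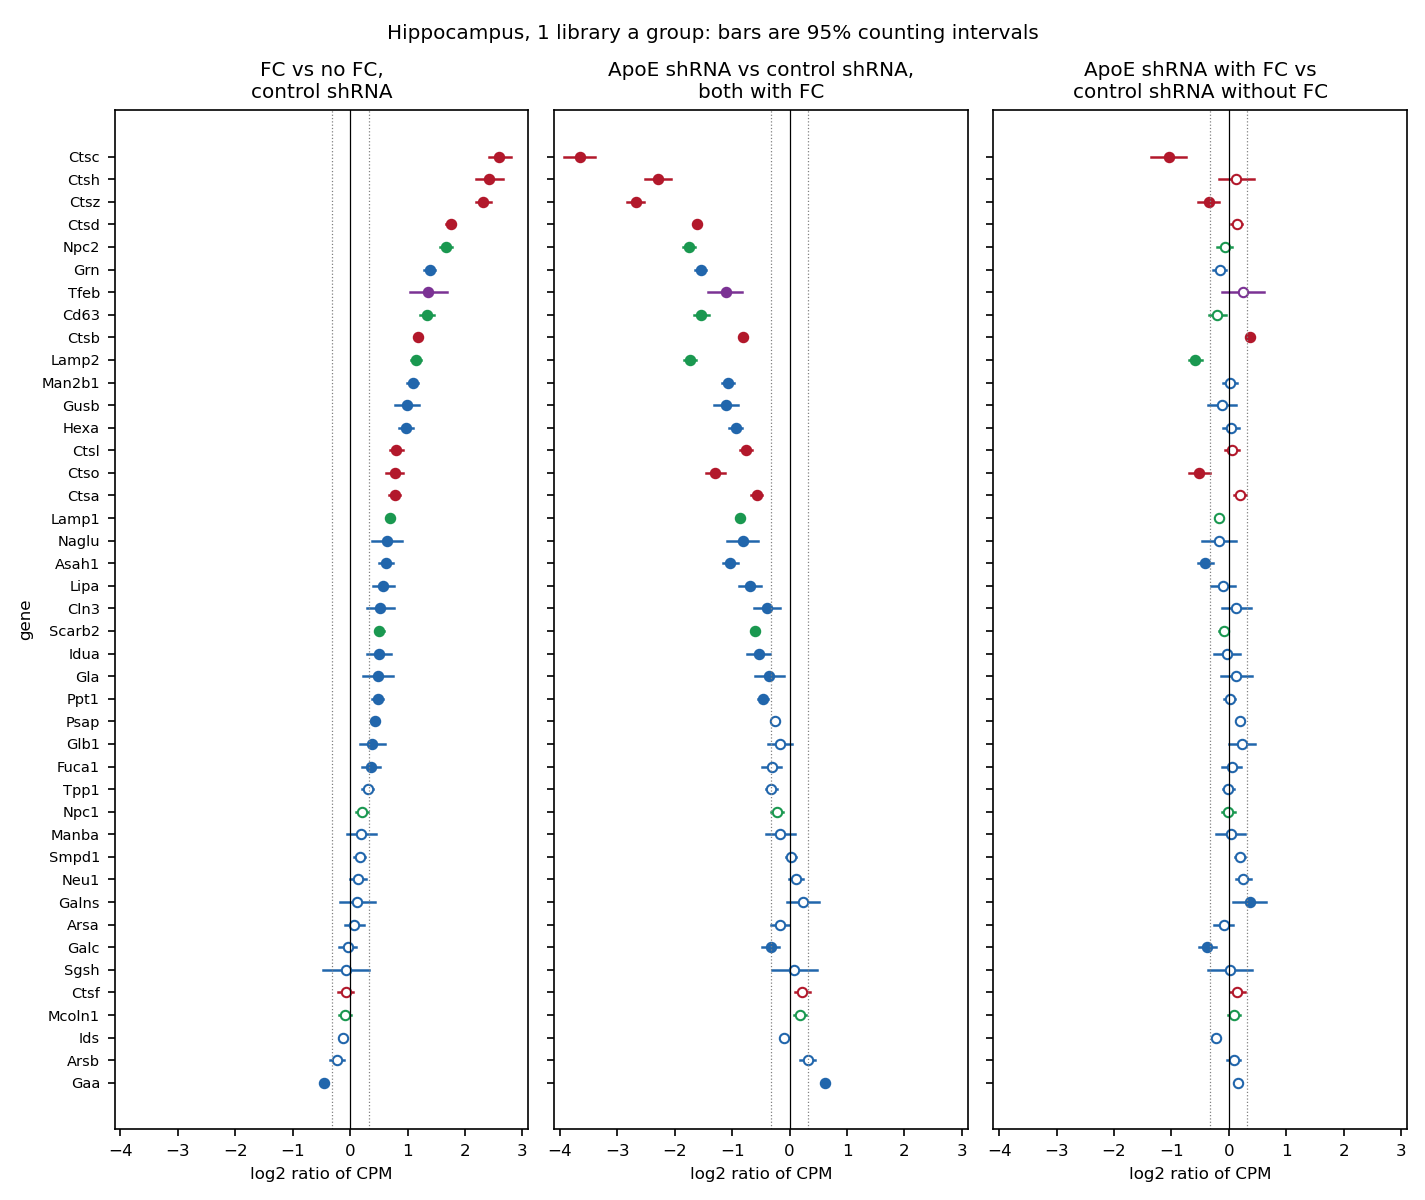
Log2 ratios of CPM (x axis) of 42 lysosomal genes (rows, ordered by the first panel and coloured by role) in the 3 hippocampal comparisons, with 95% intervals that cover counting error only; filled points are genes counted as higher or lower, and dotted lines stand at log2 ratios of -0.32 and 0.32. Ctsc, Ctsh and Ctsz lie farthest to the right for FC against no FC, at 2.60, 2.42 and 2.32, and farthest to the left for ApoE shRNA against control shRNA, at -3.65, -2.29 and -2.67.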

How the data were processed

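The authors deposited 4 tables of raw read counts per gene (whole numbers, with Ensembl identifiers and gene symbols, per the file headers). The submitters' processing notes name HISAT2 2.1.0, Bowtie2 2.2.3, HTSeq 0.6.0 and build mm10; their roles, the annotation and any use of strand were not given in the sources used here, so reads of a gene and of an overlapping antisense gene may not be told apart. Libraries were made with a NEBNext Ultra kit from 2 micrograms of total RNA, per the labels' protocols. In the table of set 2, 1489 genes had values for the reconstituted libraries only (0.2319% and 0.2259% of their counts) and were left out.

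Counts were tested with edgeR 4.0.16 in R 4.3.3 (filterByExpr, TMM, robust quasi-likelihood F test), each table on its own, except the difference between the sets, an interaction term over both tables. P-values were Benjamini-Hochberg adjusted over all genes tested, at a threshold of 0.05; all 43 genes passed the filter in each fit. SE is the log2 fold change divided by the square root of F. CPM uses the library's total, and exon length is from GENCODE vM21 (all 43 matched by identifier). Hippocampal log2 ratios used a prior of 0.5 counts, at least 100 counts in the higher library, and a log2 ratio past 0.32 in either direction with an interval off 0. DESeq2 1.42.0, other scalings, no filter, a replicate block, a non-robust fit, only the groups compared, and leaving out each library were the alternatives. Promoter sequences are RefSeq's.

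The rule for named genes took 11 genes in every comparison (Ctsd, Ctsb, Ctsl, Lamp1, Lamp2, Npc1, Npc2, Lipa, Psap, Grn and Tfeb), up to 4 called genes of largest change per role and comparison, up to 6 in hippocampus, and up to 2 called genes of lowest p per pathway or marker list; other called genes of the set may be listed. The genes and lists were chosen with earlier results of these data known. The marker lists were microglia, astrocytes, oligodendrocyte lineage, vessels and fibroblasts, choroid plexus, proliferating cells, neurons and erythrocytes. In set 1, 3 of 4 choroid plexus markers were higher, 4 of 9 oligodendrocyte lineage markers were higher and 4 lower, and the 1 erythrocyte marker tested was not called; in set 2 these came to 0 of 5, 0 higher and 1 lower of 7, and 0 of 1.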

Additional observations from a re-analysis of the deposited data

Results flagged for a closer look

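The effect of the ApoE particle differed between set 2 and set 1 by an edgeR interaction term for 26 of the 43 genes, against 31.1% of all genes tested, and all 26 differences were negative. Among cathepsins the set 2 effect minus the set 1 effect, on the log2 scale, was -1.81 for Ctsz, -1.79 for Ctsh, -1.41 for Ctsc, -1.26 for Ctsd, -1.04 for Ctso, -0.88 for Ctsl, -0.87 for Ctsb and -0.72 for Ctsa. Among those grouped as hydrolases and others it was -1.61 for Gusb, -1.35 for Grn, -1.28 for Lipa, -1.17 for Arsb, -1.0 for Man2b1, -0.91 for Fuca1, -0.89 for Tpp1, -0.85 for Galns, -0.72 for Asah1, -0.68 for Galc, -0.65 for Hexa and -0.50 for Ppt1. Among membrane proteins and sterol carriers it was -1.43 for Cd63, -0.98 for Lamp2, -0.54 for Lamp1, -0.46 for Npc1 and -0.31 for Npc2, and it was -1.27 for Tfeb. Microglial markers summed to 66.1 to 285 CPM in set 1 and to 0.787 to 1.62 CPM in the 6 libraries of set 2. By the same term 3 of 9 microglial markers were negative and called, and none positive. So were 8 of 8 proliferation markers. Of 11 astrocyte markers 7 were negative and 1 positive, and of 10 vessel and fibroblast markers 6 and 1. Among 12 neuronal markers 7 were positive and none negative. The part of these markers in the difference was not tested.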

How the results depend on the processing

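Leaving out 1 library at a time, with the lone library of its group assumed to vary like the other groups, the number of the 43 genes called was 0 to 4 for ADM, 23 to 33 for set 1, 6 to 11 for set 2, 0 for the reconstituted particle against control, 5 to 7 for the 2 particles and 23 to 29 for the difference between sets. For ADM the count of 0 became 1 with DESeq2 (1% of all genes called), 1 without the filter on low counts (0.421%) and 8 with the replicate block (2.87%), all higher, with Ctsd at 1.00, Ctsl at 0.73 and Lamp2 at 1.09 among them, and Tfeb turned to -0.089 with the block. In hippocampus a fold of 1.5 left 19 genes of the set for FC against no FC, against 16.7% of all genes. The cause of these changes was not tested. In the fits that left out 1 library, the share of all genes called moved as well. The ranges from those fits alone therefore do not tell a change in the lysosomal set from one in all genes.

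The labels give the same replicate numbers to different groups. Deviations of same-numbered libraries correlated at 0.593 in the ADM table, 0.048 in set 1 and -0.155 to 0.079 in set 2. The labels do not say that a number marks a shared culture or day, and 2 pairs do not settle it for ADM, so no pairing was assumed. With the replicate block 30 genes of the set were called in set 1 (38.8% of all genes) and 10 in set 2 (19.8%). For the reconstituted particle against control the block gave 0 (0.0061%). It gave 6 between the particles (18.1%) and 26 for the difference between sets (29.9%).

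Signs that turned when 1 library was left out were of small or noisy values. For ADM the lowest and highest values were -0.080 and 1.91 for Ctsd, -0.26 and 1.26 for Grn, -0.21 and 0.72 for Lamp1, -0.10 and 0.39 for Npc2, -0.27 and 0.45 for Psap and -1.28 and 0.78 for Tfeb. In set 2 Tfeb ran from -0.22 to 0.45. For the reconstituted particle against control the values were -0.011 and 0.056 for Ctsb, -0.057 and 0.15 for Grn, -0.019 and 0.10 for Lamp2, -0.043 and 0.10 for Npc2 and -0.067 and 0.0022 for Psap. Between the particles Ctsd ran from -0.064 to 0.041. In set 2, depth limits Tfeb, Ctsh and Ctsk, the genes of lowest level per length in its controls.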
